A study of Mus musculus with 4 samples.

Results

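The chemokine Cxcl12, its signalling receptor Cxcr4 and the scavenger receptors Ackr3 and Ackr2 were followed through the cell types of the E14.5 mouse ventricle, with and without endothelial *Ets1*. The 4 genes were taken by symbol from the 32285 genes of each count matrix, and each symbol was found once. Droplet 3' single-cell RNA libraries came from 2 control samples (Tie2Cre;Ets1 fl/+) and 2 *Ets1* endothelial knockout samples, called eKO (Tie2Cre;Ets1 fl/fl), on a C57BL/6 background and without treatment. Each library held cells from 3 pooled ventricles of embryos of unrecorded sex. The sample labels name no batch, so a batch difference between libraries could not be looked at. Controls carried Tie2Cre and 1 floxed allele, so the comparison is between deletion of 1 and of both copies of *Ets1*. Tie2Cre is active in endothelial cells, in endocardium and its mesenchymal descendants, and also in blood cells, so it does not mark endothelium alone.

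CXCL12 is a secreted chemokine that binds heparan sulfate and attracts cells carrying CXCR4, a G protein-coupled receptor. In the developing heart this pair is known for the growth and maturation of coronary arteries. ACKR3 binds CXCL12 without classical G protein signalling, takes it into the cell for degradation and so shapes how much ligand is left for CXCR4, and it also takes up adrenomedullin. ACKR2 is another atypical receptor, which removes inflammatory CC chemokines, does not bind CXCL12 and is best known from lymphatic endothelium.

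The libraries held 124140739 and 76931208 UMIs (unique transcript counts) in control replicates 1 and 2, and 95131419 and 102872196 in eKO replicates 1 and 2. Median UMIs per barcode were 8630 and 8369 in the controls against 8222 and 5632 in the eKO libraries, so eKO replicate 2 was the shallowest per cell. After filters, 37913 cells were kept (10296, 6796, 8519 and 12302), and each pair of libraries shared 0.239% to 0.440% of the barcodes of its smaller library. Cells were placed in classes by scores of marker genes, and the names below mean "like" that type. They comprised 18775 cardiomyocytes, 6691 mesenchymal cells, 696 immune cells, 467 epicardial cells, 399 smooth muscle cells and 6827 endothelial cells. Of the endothelial cells, 1617 were coronary vascular (cvEC), 3432 mural endocardial (mEndo) and 478 valve endocardial (vEndo). In the median cvEC, the 8 coronary markers made up 117.8 of 10000 UMIs and the mural markers 1.25. In the median mEndo cell, the mural markers made up 43.7 of 10000 UMIs and the coronary markers 62.4. The coronary total in mEndo came mostly from Fabp5, at a mean of 6222 per 1000000 UMIs, a gene that every class expressed. The median vEndo cell had 19.1 of 10000 UMIs from valve markers, against 1.76 in mEndo cells. It had nearly as many from mural markers, at 17.5, and 13.0 from coronary markers.

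*Ets1* itself was read first as a check of the labels. In mEndo cells it stood at 284 and 266 UMIs per 1000000 UMIs of the class (CPM) in the controls and at 128 and 101 in the eKO libraries. It was 375 and 328 against 182 and 127 CPM in cvECs, and 227 and 226 against 103 and 104 in vEndo cells. Both eKO libraries lay below both controls in each of these classes. In mEndo cells *Ets1* fell, with a log2 fold change of -1.22 ± 0.14 (SE, edgeR quasi-likelihood test, Benjamini-Hochberg adjusted p = 0.000976). In cvECs the log2 fold change was -1.11 ± 0.18 (edgeR adjusted p = 0.0206), and in vEndo cells -1.10 ± 0.17 (edgeR adjusted p = 0.0140). Transcript remained in the eKO. Whether the 3' tags lie inside or outside the deleted part was not looked at, and they check nothing about the protein. Cardiomyocytes held 6.32 and 6.49 CPM in control libraries and 9.37 and 9.02 in the eKO. Outside endothelium, mesenchyme held 93.0 and 84.3 CPM against 57.4 and 54.6, so both eKO libraries lay below both controls there too. Smooth muscle held 188 and 98.2 CPM against 121 and 93.8, and the groups overlapped there and in epicardial and immune cells.

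The 4 genes were read in different, partly shared sets of cells. Cxcl12 was read in cardiomyocytes, arterial coronary cells and elastin-rich wall cells, Cxcr4 in coronary and immune cells, Ackr3 in both endocardial classes, and Ackr2 thinly in coronary cells. Of 32 pairs of a gene and a class, 17 passed the filter on low counts and were tested, and 1 passed the test at an adjusted p of at most 0.05. That was Ackr2 in cvECs, which passed the filter only through the control libraries. Over all genes tested, 0.919% passed in cvECs, and the share by class ran from 0% in smooth muscle to 3.05% in mEndo cells. Levels below are 3' UMI counts, which are compared between classes and libraries but not between genes.

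**Figure D1:**
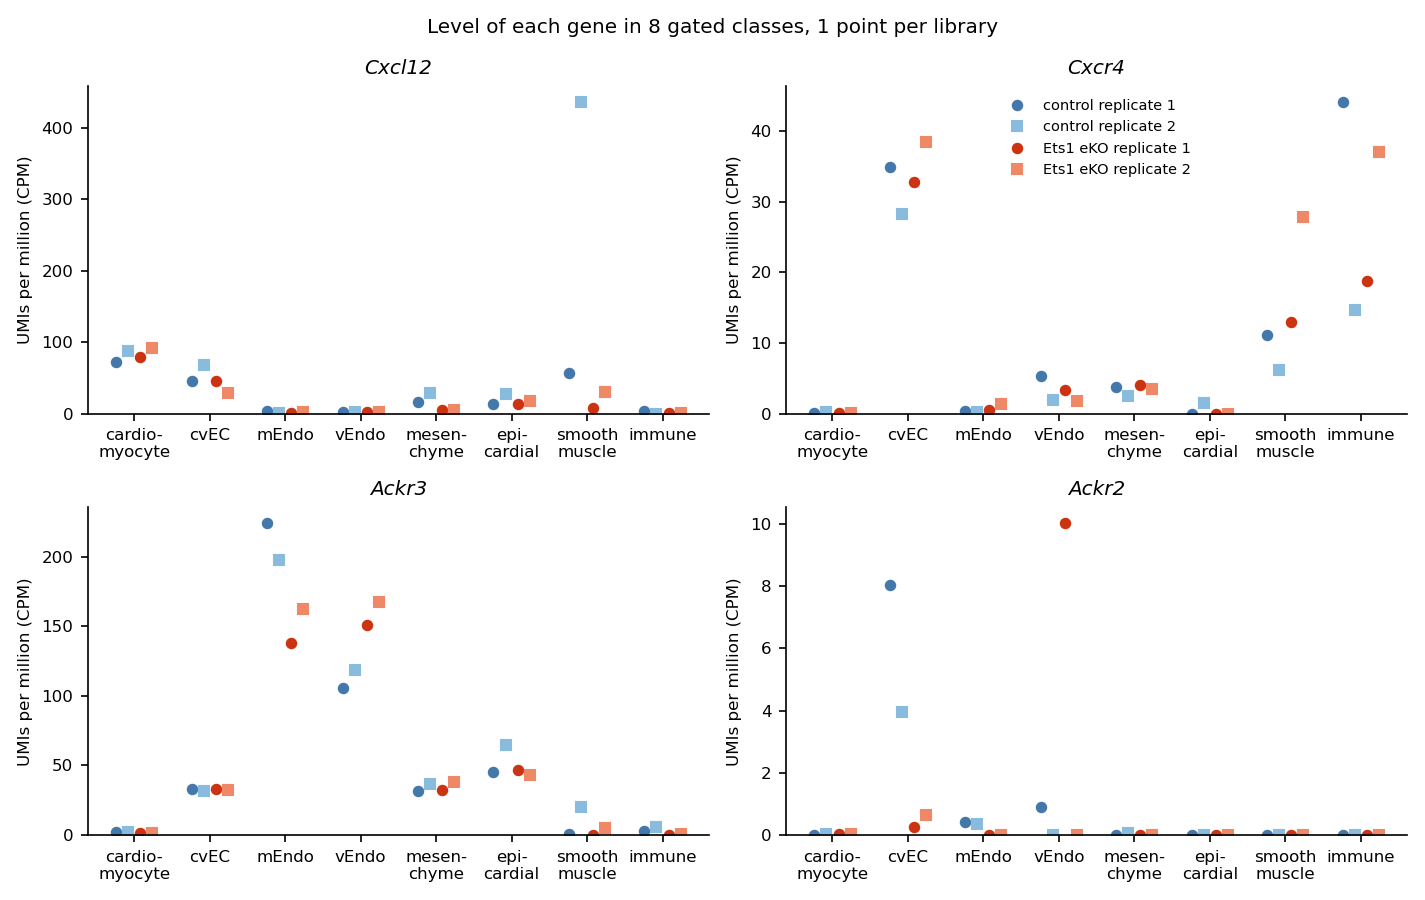
Levels of Cxcl12, Cxcr4, Ackr3 and Ackr2 (CPM on axes from 0) in 8 marker-gated classes. Each point is 1 library. Ackr3 lies highest in the mEndo and vEndo classes, with means of 180.5 and 135.5 CPM.

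Cxcl12 (ENSMUSG00000061353, chr6:117168535-117181367, plus strand, GRCm38, GENCODE vM21) encodes the ligand. Cardiomyocytes expressed it at 72.6 and 87.7 CPM in control libraries and 78.8 and 92.0 CPM in the eKO libraries, from 4629, 3152, 3858 and 4284 UMIs. The groups overlapped, with control replicate 2 between the eKO libraries. Its log2 fold change there was 0.22 ± 0.14 (SE, edgeR quasi-likelihood, adjusted p = 0.490), higher in 1 of 2 eKO libraries than in either control. Without eKO replicate 1 it was 0.35, and without eKO replicate 2 it was 0.066, each in a fit with 1 eKO library. Ackr3, at 1.49 to 2.39 CPM, was the other member tested in cardiomyocytes and did not pass, where 0.00624% of the 16022 genes tested did. Cardiomyocytes were 43.3% to 55.1% of the kept cells of a library and held most of the ligand transcript. They held 86.0% and 64.9% of all Cxcl12 UMIs in the controls and 92.3% and 93.2% in the eKO. Control replicate 2 also stood apart in other cells. Smooth muscle held 1.13% and 13.2% in the controls against 0.143% and 0.261%, and cells placed in no class 2.95% and 9.23% against 1.29% and 1.83%. These shares were not tested between the groups.

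Among cardiomyocytes, compact cells held 70.5 and 83.1 CPM of Cxcl12 in the controls and 81.5 and 96.1 in the eKO libraries. Trabecular cells held 88.5 and 114 CPM against 93.5 and 97.6. The layers overlapped, and neither showed a separation of the groups. Atrioventricular canal cells were lower, at 36.8 and 72.0 CPM against 17.0 and 26.6, with both eKO libraries under both controls in 182 UMIs in all. Levels of that last class were not tested. When every cell was thinned to 2000 UMIs, 11.8% and 15.3% of control cardiomyocytes and 14.0% and 15.7% of eKO cardiomyocytes had a Cxcl12 UMI. Immune cells, used as background, had 0.725% in control replicate 1 and none in the others, at medians of 3716 to 6970.5 UMIs per cell against 7440.5 to 12255.5 in cardiomyocytes.

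**Figure D2:**
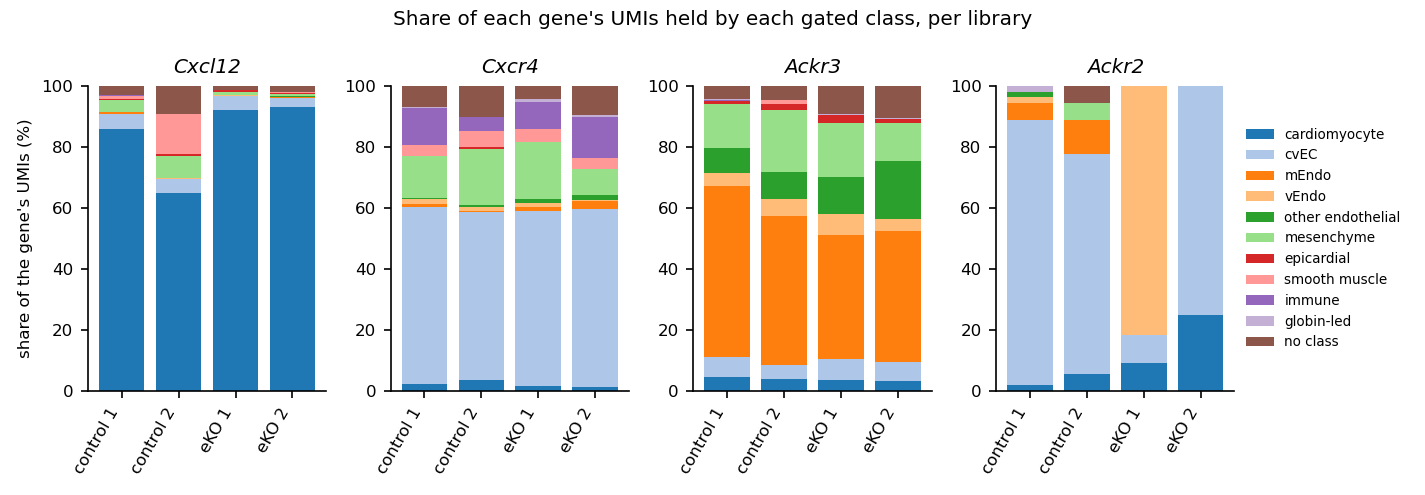
Share of each gene's UMIs (percent of all kept cells) held by each class in each of the 4 libraries, as stacked bars. Cardiomyocytes hold 64.9% to 93.2% of Cxcl12, while cvECs hold 55.0% to 58.3% of Cxcr4 and mEndo cells 40.6% to 56.2% of Ackr3. The Ackr2 bars rest on 54, 18, 11 and 4 UMIs.

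In coronary endothelium the ligand was an arterial transcript. The arterial cvECs, 353 cells with Gja5, Gja4, Sox17 and other arterial markers, held Cxcl12 at 182 and 273 CPM in control libraries and 181 and 101 CPM in the eKO libraries. Venous cvECs held 2.62 to 5.79 CPM and capillary cvECs 2.87 to 13.1 CPM, so no library's arterial cells came near the other subsets. Control replicate 2 was the highest of the arterial values and eKO replicate 2 the lowest, while control replicate 1 and eKO replicate 1 were nearly equal. In arterial cells the log2 fold change was -0.58 ± 0.26 (SE, edgeR adjusted p = 0.439), and Cxcl12, Cxcr4 and Ackr3, tested there, did not pass, where 0.324% of genes did. Without 1 library the Cxcl12 value was -1.05 to -0.18. The 7 arterial markers summed to 1961 and 1900 CPM in control arterial cells and 1496 and 1421 in the eKO. The 8 coronary markers went the other way, at 10411 and 9977 against 13630 and 16494. Their part in the Cxcl12 values was not tested. Across all cvECs the level was 45.5 and 68.3 CPM against 45.5 and 29.4. Over this class the log2 fold change was -0.50 ± 0.23 (edgeR adjusted p = 0.350), and only eKO replicate 2 lay clearly below both controls. That value was -0.81 without control replicate 1 and -0.82 without eKO replicate 1. It was -0.21 without control replicate 2 and -0.22 without eKO replicate 2. Each of these fits leaves 1 library in a group. The share of arterial cells with a UMI at 2000 UMIs per cell was 22.1% and 14.3% against 19.1% and 19.1%.

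Mesenchymal cells held the ligand at different levels in the groups, at 16.5 and 28.4 CPM in control libraries and 4.69 and 4.28 CPM in the eKO libraries, from 213, 361, 51 and 33 UMIs, and the groups did not overlap. The log2 fold change was -2.21 ± 0.28 (SE, edgeR quasi-likelihood), lower in 2 of 2 eKO libraries, and its adjusted p of 0.0543 missed the threshold of 0.05. Scaling by total counts gave -2.31 (edgeR adjusted p = 0.0315). DESeq2 gave -2.22 with an adjusted p of 2.77e-08, where 0.75% of genes passed. Without any 1 library the value was -2.53 to -1.81, in fits that leave 1 library in a group. Cxcr4 and Ackr3, also tested in mesenchyme, did not pass in the main fit, where 0.0481% of 14541 genes did. In the controls most of this ligand came from few cells rich in Eln, the gene for elastin of the arterial wall, a split made after the values were seen. Eln-rich cells were 7.94% and 11.8% of control mesenchyme and 2.15% and 2.31% of eKO mesenchyme. They held 65.3% and 75.1% of its Cxcl12 UMIs in the controls, against 15.7% and 3.03% in the eKO.

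Within the Eln-rich mesenchymal cells, Cxcl12 was 166 and 220 CPM in the controls, from 139 and 271 UMIs. It was 65.1 and 9.86 CPM in the eKO, from 8 UMIs and 1 UMI. The remaining mesenchyme stood at 6.12 and 7.84 CPM against 3.998 and 4.20. Without the Eln-rich cells the log2 fold change was -0.68 ± 0.23 (SE, edgeR adjusted p = 0.408), lower in 2 of 2 eKO libraries. Both the share of Eln-rich cells and the level inside them were lower in the eKO, and the part of each in the class value was not tested. The Eln-rich cells also differed between the groups in Eln itself, at 2189.9 and 2539 CPM against 1433 and 1598, and in depth, with medians of 5986 and 5719 UMIs against 3645.5 and 2530. Their number was 135 and 203 cells in the controls and 32 and 41 in the eKO. With clusters in place of the marker gate the value was -1.61 (edgeR adjusted p = 0.136).

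In smooth muscle cells Cxcl12 stood at 56.6 and 437 CPM in control libraries and 7.80 and 30.4 CPM in the eKO libraries, and both eKO libraries were below both controls although the controls differed widely. Eln-rich cells made up 10.5% and 66.2% of control smooth muscle and 4.05% and 6.35% of eKO smooth muscle. Inside them the level was 699 and 704 CPM against 50.4 and 695 CPM, the eKO values resting on 1 and 12 UMIs from 3 and 4 cells, against 11 and 104 cells in the controls, too few to compare the groups inside these cells. For the class as a whole the log2 fold change was -3.81 ± 1.02 (SE, edgeR adjusted p = 0.891). Without control replicate 1 it was -4.63 and passed (edgeR adjusted p = 0.0183), and without control replicate 2, the library with the high level, it was -1.73 and did not (edgeR adjusted p = 0.119). No gene passed there by edgeR (0% of 8833 genes, with 462 at an unadjusted p under 0.05) or by DESeq2, and Cxcl12 and Cxcr4 were the members tested.

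Epicardial cells expressed Cxcl12 at 13.4 and 27.2 CPM in control libraries and 14.0 and 17.2 in the eKO, and both eKO libraries lay between the controls. This gave a log2 fold change of -0.29 ± 0.43 (SE, edgeR adjusted p = 0.940). Neither Cxcl12 nor Ackr3 passed the test in this class, where 0.0345% of genes did. The endocardial classes and immune cells held 0 to 3.08 CPM, near background. In order of mean level, smooth muscle (133 ± 204 CPM, SD, n = 4 libraries) overlapped cardiomyocytes (82.8 ± 8.75). Cardiomyocytes lay above cvECs (47.2 ± 16.0), and cvECs above epicardial cells (17.9 ± 6.37) in every library. Epicardial cells overlapped mesenchyme (13.5 ± 11.4), which lay above vEndo (2.36 ± 0.469), mEndo (1.76 ± 1.07) and immune cells (1.22 ± 1.31). The lowest 3 classes overlapped each other.

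Cxcr4 (ENSMUSG00000045382, chr1:128588199-128592293, minus strand), the signalling receptor, was read mainly in coronary endothelium. In cvECs it stood at 34.9 and 28.2 CPM in control libraries and 32.8 and 38.5 CPM in the eKO, and the groups overlapped. The log2 fold change was 0.25 ± 0.17 (SE, edgeR quasi-likelihood, adjusted p = 0.542), above both controls in 1 of 2 eKO libraries. Without 1 library it was 0.11 to 0.41. Within the class Cxcr4 was again arterial, at 93.9 and 89.4 CPM in control libraries and 103 and 94.0 in the eKO. Venous cvECs held 3.31 to 11.8 CPM. The arterial eKO values lay above the controls, eKO replicate 2 barely so, with a log2 fold change of 0.20 ± 0.20 (SE, edgeR adjusted p = 0.770). Capillary cvECs held 8.47 and 14.4 CPM in control libraries and 18.9 and 30.0 CPM in the eKO, from 7, 5, 16 and 32 UMIs. Both eKO libraries were above both controls there, and the difference was not tested. Thinned to 2000 UMIs, 5.29% and 6.22% of control cvECs and 5.17% and 6.71% of eKO cvECs had a Cxcr4 UMI, against 0% to 0.0415% of cardiomyocytes. The eKO mean was above the control mean by 0.185 percentage points at that depth, but the difference was -1.54 at 1000 UMIs per cell and -2.78 with all UMIs, so the direction turned with the depth used. In arterial cells the share went against the level, at 15.8% and 21.4% in the controls and 11.8% and 14.8% in the eKO. Both eKO shares lay below both controls, by a mean difference of -5.34 percentage points (exact two-sided permutation p = 0.33, the smallest possible).

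Ligand and receptor were therefore read in the same small arterial subset. With all UMIs of each cell, both transcripts were found together in 26 and 14 control arterial cells and in 13 and 17 eKO arterial cells. Among arterial cells with a Cxcl12 UMI, 66.7% and 58.3% in the controls and 61.9% and 48.6% in the eKO also had a Cxcr4 UMI. Among the remaining arterial cells it was 54.4% and 58.8% against 42.3% and 34.1%. Cells with the ligand had higher median UMIs in each library, by the most in control replicate 2 (15775.5 against 8280.5) and by the least in eKO replicate 1 (8374 against 8275.5), and the part of depth in these shares was not tested.

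**Figure D3:**
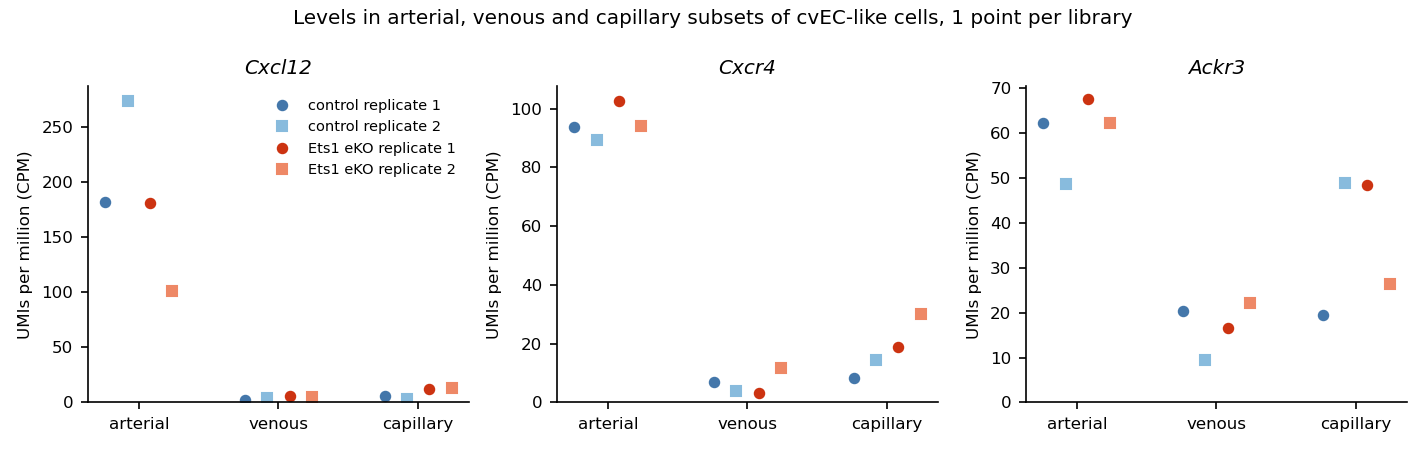
Levels (CPM, linear axes from 0) of Cxcl12, Cxcr4 and Ackr3 in arterial, venous and capillary cvECs. Each point is 1 library. Cxcl12 at 101 to 273 CPM and Cxcr4 at 89.4 to 103 CPM are highest in the arterial subset in all 4 libraries.

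Outside the coronary vessels, Cxcr4 was read in immune cells at 44.2 and 14.7 CPM in control libraries and 18.8 and 37.0 in the eKO. The eKO libraries lay between the controls, with a log2 fold change of -0.17 ± 0.43 (SE, edgeR adjusted p = 0.980) in a class where 0.0117% of genes passed. Its sign turned without control replicate 1 (0.95) or eKO replicate 1 (0.24). Smooth muscle held 11.1 and 6.13 CPM in the controls against 13.0 and 27.9, with a log2 fold change of 1.24 ± 0.56 (SE, edgeR adjusted p = 0.891). Its Eln-rich cells had 0 Cxcr4 UMIs. Outside them the level was 12.1 and 15.1 CPM against 13.3 and 29.2, and the groups overlapped. Mesenchyme held 2.44 to 4.04 CPM, and its groups overlapped. In order, cvECs (33.6 ± 4.27 CPM, SD, n = 4 libraries) overlapped immune cells (28.7 ± 14.2), and these overlapped smooth muscle (14.5 ± 9.36). Mesenchyme (3.44 ± 0.706) and vEndo cells (3.07 ± 1.67) lay below and overlapped each other. The mEndo cells (0.599 ± 0.481), epicardial cells (0.377 ± 0.754) and cardiomyocytes (0.115 ± 0.0399) were lowest.

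Ackr3 (ENSMUSG00000044337, chr1:90203980-90216751, plus strand), the scavenger of CXCL12, was an endocardial transcript. In mEndo cells it stood at 224 and 197 CPM in control libraries and 138 and 162 CPM in the eKO libraries, from 1620, 1107, 804 and 1008 UMIs. Both eKO libraries lay below both controls. The log2 fold change was -0.44 ± 0.13 (SE, edgeR quasi-likelihood), lower in 2 of 2 eKO libraries, with an unadjusted p of 0.00646 and an adjusted p of 0.0981. It therefore missed the threshold, as did Cxcl12, the other member tested in mEndo cells, where 3.05% of 12459 genes passed. The clusters that made up this class shifted in share, with the largest, cluster 11 of 2186 cells, holding 76.6% and 75.9% of control mEndo cells and 62.7% and 48.6% of eKO mEndo cells. Inside that cluster Ackr3 was 221 and 200.1 CPM in control libraries and 135 and 159 in the eKO. In cluster 6 it was 253 and 226 CPM against 155 and 182, and in cluster 23 it was 220.3 and 181 against 126 and 142. Thus in each of these 3 clusters both eKO libraries were below both controls. Markers of other cell types moved with the group in mEndo cells. The 9 fibroblast and mesenchyme markers, all detected and led by Col3a1, summed to 565 and 501 CPM in the controls and 891 and 806 in the eKO. The 7 mural markers, which the gate used, summed to 5005 and 5063 CPM against 4265 and 4192. The smooth muscle and pericyte markers summed to 85.9 and 66.0 CPM against 106 and 117. The arterial markers summed to 434 and 397 CPM against 358 and 358, and the lymphatic markers to 76.2 and 78.5 against 114 and 89.2. In each of these lists the groups did not overlap. The part of these markers in the Ackr3 values, and in the calls on other mEndo genes below, was not tested.

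The share of mEndo cells with an Ackr3 UMI, at 2000 UMIs per cell, was 36.2% (exact 95% interval 32.9% to 39.5%) and 28.9% (25.3% to 32.6%) in the controls. It was 22.3% (19.3% to 25.6%) and 26.2% (23.7% to 28.9%) in the eKO. The eKO mean was 8.25 percentage points lower, and the exact two-sided permutation test gave p = 0.33, the smallest that 2 against 2 libraries allow. Without 1 library the difference was -11.9 to -4.60 percentage points. The interval of control replicate 2 overlapped those of both eKO libraries. Immune cells, as background, had 1.45% in control replicate 1 and 0% in the other libraries, at medians of 3716 to 6970.5 UMIs per cell against 4381 to 7510 in mEndo cells.

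**Figure D4:**
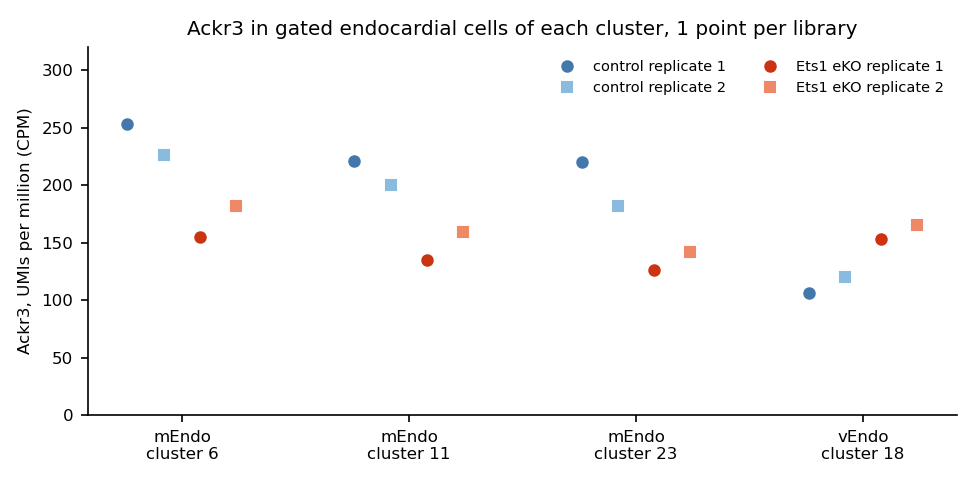
Ackr3 (CPM, axis from 0) in mEndo cells of clusters 6, 11 and 23 and vEndo cells of cluster 18. Each point is 1 library. In the mEndo clusters both eKO libraries are below both controls, and in the vEndo cluster, at 153 and 165 against 106 and 120 CPM, both are above.

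Valve endocardium went the other way. The vEndo cells, which line the forming valves, held Ackr3 at 106 and 119 CPM in control libraries and 150.5 and 167 CPM in the eKO libraries, from 119, 127, 135 and 95 UMIs. Both eKO libraries lay above both controls. The log2 fold change was 0.53 ± 0.17 (SE, edgeR adjusted p = 0.303), higher in 2 of 2 eKO libraries, and Ackr3 was the only member tested there and did not pass, where 0.278% of genes did. In the same cells the 7 arterial markers, all detected and led by Efnb2, summed to 481 and 706 CPM in the controls and 367 and 317 in the eKO. The 8 valve markers that the gate used summed to 2245 and 2106 against 2509.5 and 2514. The 7 mural markers summed to 2110 and 1921 against 2151 and 2262. The coronary markers summed to 2026 and 1841 against 2181 and 2737, and the cardiomyocyte markers to 799 and 603 against 833 and 1185. In each of these lists the groups did not overlap, and the part of any in the Ackr3 values was not tested. The difference of the effects, vEndo minus mEndo, was 0.99 ± 0.18 on the log2 scale and passed (edgeR quasi-likelihood class by condition term, adjusted p = 0.0103). It was 1 of 2 members tested for this difference, where 0.665% of 12478 genes passed. Without eKO replicate 1 the difference was 0.95 and did not pass (edgeR adjusted p = 0.187), while leaving out any other library kept the call. The shares of vEndo cells with a UMI did not follow the levels, at 19.1% and 18.6% in the controls and 16.7% and 24.8% in the eKO (exact two-sided permutation p = 1, n = 2 against 2). In control tissue mEndo cells stood at 197 to 224 CPM and vEndo cells at 106 to 119, whereas in the eKO the ranges of 138 to 162 and 150.5 to 167 overlapped.

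Coronary cells held Ackr3 at 33.2 and 31.6 CPM in control libraries and 32.8 and 32.6 CPM in the eKO, a spread of 0.683 CPM (SD) with overlapping groups. The fitted log2 fold change was 0.10 ± 0.15 (SE, edgeR adjusted p = 0.803). The effect in mEndo minus that in cvECs was -0.52 ± 0.15 (edgeR adjusted p = 0.0761), and that in vEndo minus cvECs was 0.44 ± 0.21 (edgeR adjusted p = 0.629), so neither difference passed. All 4 members were tested for mEndo minus cvECs, where 1.78% of genes passed. Arterial cvECs held 62.3 and 48.6 CPM against 67.6 and 62.3, above the venous cvECs at 9.39 to 22.0, and overlapped the capillary cvECs at 19.4 to 48.8 only at their lowest value.

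Mesenchyme carried Ackr3 at 31.8 and 36.5 CPM in control libraries and 32.2 and 38.0 in the eKO, with a log2 fold change of 0.13 ± 0.14 (SE, edgeR adjusted p = 0.727). Without 1 library it was 0.0046 to 0.25. Epicardial cells held 45.5 and 64.9 CPM against 46.6 and 43.1, with a log2 fold change of -0.21 ± 0.26 (SE, edgeR adjusted p = 0.928). The groups overlapped in both classes. Among cardiomyocytes, only those of the atrioventricular canal held the transcript at more than a few CPM, at 32.0 and 16.4 in the controls against 34.1 and 39.9. In order of mean, mEndo (180.5 ± 37.9 CPM, SD, n = 4 libraries) and vEndo cells (135.5 ± 28.4) overlapped. Both lay above epicardial cells (50.01 ± 10.0), which lay above mesenchyme (34.6 ± 3.08) and the overlapping cvECs (32.5 ± 0.683). Smooth muscle (6.44 ± 9.15), immune cells (2.37 ± 2.47) and cardiomyocytes (1.87 ± 0.415) were low and overlapped each other.

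Ackr2 (ENSMUSG00000044534, chr9:121898355-121911074, plus strand), the scavenger of inflammatory CC chemokines, was a rare transcript of coronary cells in the controls. In cvECs 47 and 13 UMIs were read in the controls and 1 and 3 in the eKO, or 8.03 and 3.95 CPM against 0.243 and 0.634. Both eKO libraries lay far below both controls. The log2 fold change of Ackr2 in eKO cvECs was -3.65 ± 0.62 (SE, edgeR quasi-likelihood, Benjamini-Hochberg adjusted p = 0.0238), lower in 2 of 2 eKO libraries. With 1 and 3 eKO UMIs, Ackr2 passed the filter on low counts only through the control libraries, where it was high. The call depends on that group. All 4 members were tested in cvECs and Ackr2 alone passed, where 0.919% of 11421 genes did. The ratio of control to eKO level, from 60 and 4 UMIs pooled over the libraries of each group, was 14.5 (95% counting interval 5.38 to 54.9). That interval covers counting error only and leaves out the spread between libraries, such as 8.03 against 3.95 CPM in the controls. It therefore does not measure the uncertainty of the eKO effect. Without control replicate 1 the log2 fold change was -2.97 and did not pass (edgeR adjusted p = 0.159), and without eKO replicate 2 it was -4.48 and passed.

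The control UMIs were spread over many cells: 39 of 425 cvECs (9.18%, exact 95% interval 6.61% to 12.3%) and 11 of 237 (4.64%, 2.34% to 8.15%) had at least 1, and no cell had more than 3. In the eKO it was 1 of 343 cells (0.292%, 0.00738% to 1.61%) and 3 of 612 (0.490%, 0.101% to 1.43%), at median depths of 9841 and 5874.5 UMIs per cell against 11488 and 11321 in the controls. Cardiomyocytes, as background, had 1 cell with a UMI in each library, or 0.0167% to 0.0339% of cells. The positive control cells were not of 1 subset, with 5 and 2 arterial, 11 and 5 venous, 7 and 1 capillary and 16 and 3 unassigned. Of the 6 lymphatic markers usable, Flt4 was found in 30 and 7 of these cells, Prox1 in 6 and 3, Mmrn1 in 4 and 1, Lyve1 in 1 and 0, and Pdpn and Reln in 0. At least 3 of these markers were found together in 3 and 0 of the cells with Ackr2, in 4 and 3 of all control cvECs, and in 3 and 1 of all eKO cvECs. Over all cvECs the 6 lymphatic markers summed to 79.0 and 106 CPM in the controls and 67.1 and 62.4 in the eKO. Flt4 led them at a mean of 61.6 CPM, so it was not limited to cells with Ackr2. Its share among cvECs without Ackr2 was not counted. The 7 arterial markers, led by Efnb2, summed to 789.9 and 745 CPM against 569 and 593, and the 8 coronary markers that the gate used to 11159 and 9980 against 13227 and 15283. All markers of these lists were detected and in each the groups did not overlap. Their part in the Ackr2 values, and in the calls on other cvEC genes below, was not tested. After thinning to 2000 UMIs, 1.20% of control replicate 1 cvECs and 0% in the others had a UMI. At 1000 UMIs per cell the control mean was 0.546% and the eKO mean 0% (exact two-sided permutation p = 0.33, the smallest possible). Shares this low rest on few cells.

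Elsewhere few Ackr2 UMIs were counted. The mEndo cells had 3 and 2 UMIs in the controls and 0 in both eKO libraries, and the vEndo cells had 1 and 0 against 9 and 0. All 9 came from 1 cell of eKO replicate 1 with 15052 UMIs in total. That cell held 41 UMIs of Prox1 and had 5 of the 6 lymphatic markers at 0, including Lyve1 and Flt4. The difference of effects, vEndo minus cvEC, was 6.95 ± 1.49 (SE, edgeR adjusted p = 0.0183), 1 of 4 members tested there to pass, where 0.580% of genes did. It turned to -0.24 without eKO replicate 1 (edgeR adjusted p = 0.984), was 9.43 without control replicate 1 (edgeR adjusted p = 0.0622), and rests on that cell. The effect in mEndo minus cvECs was -0.38 ± 0.50 (SE, edgeR adjusted p = 0.842). Epicardial, smooth muscle and immune cells had 0 UMIs. In immune cells a count of 0 allows a share of cells with a UMI of up to 1.05% to 3.85% by library, a limit on cells with a UMI and not on cells expressing the gene. In order of mean, cvECs (3.21 ± 3.62 CPM, SD, n = 4 libraries) and vEndo cells (2.73 ± 4.89) overlapped, and mEndo cells (0.193 ± 0.224) overlapped both.

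**Figure D5:**
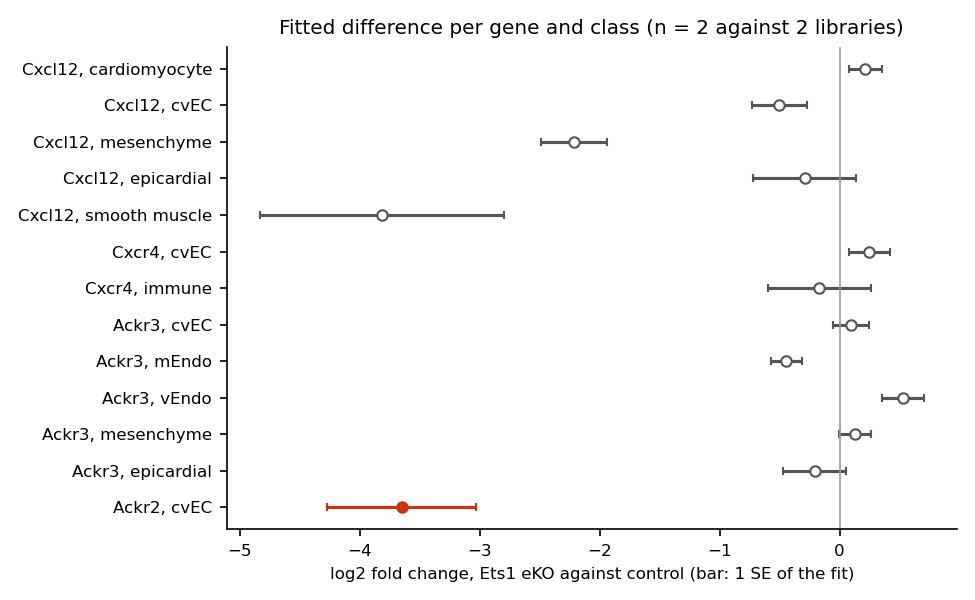
Log2 fold change, eKO against control (n = 2 libraries each), of pairs of a gene and a class, with bars of 1 SE of the fit. A filled point passed the edgeR test at an adjusted p of at most 0.05. Ackr2 in cvECs at -3.65 is the only filled point.

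The promoters of both scavenger receptors are shown because these genes gave the differences that passed a test. For Ackr2 these calls are weak grounds: it passed the filter in cvECs only through the control libraries, and its difference between classes rests on 1 cell. ETS factors bind a GGAA core, and binding was not tested. RefSeq promoters, from 250 bases before to 50 after the gene start, matched all 4 genes in GRCm38.p6. Both below lie on the plus strand, at chr1:90203730-90204029 for Ackr3 and chr9:121898105-121898404 for Ackr2. They are printed 5' to 3' with GGAA, or TTCC for the other strand, in capitals.
Ackr3: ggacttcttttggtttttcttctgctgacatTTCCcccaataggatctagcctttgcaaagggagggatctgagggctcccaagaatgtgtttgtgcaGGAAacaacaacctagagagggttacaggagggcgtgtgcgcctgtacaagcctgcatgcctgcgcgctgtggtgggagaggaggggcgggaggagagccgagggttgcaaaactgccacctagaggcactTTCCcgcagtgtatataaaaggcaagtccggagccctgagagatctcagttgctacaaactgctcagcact
Ackr2: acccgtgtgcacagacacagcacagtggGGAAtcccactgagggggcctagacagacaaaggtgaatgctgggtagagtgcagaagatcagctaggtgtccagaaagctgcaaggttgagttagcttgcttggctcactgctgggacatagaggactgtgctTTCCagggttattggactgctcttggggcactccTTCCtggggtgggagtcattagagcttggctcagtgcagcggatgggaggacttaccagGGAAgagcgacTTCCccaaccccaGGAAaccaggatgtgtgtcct
The Ackr3 promoter holds 3 such matches, as does that of Cxcl12, and 66.3% of the 32851 mouse promoters hold at least as many. The Ackr2 promoter holds 6, a number reached by 15.7% of promoters. That of Cxcr4 holds 1, and 96.0% of promoters hold at least 1. The longer motif CCGGAAGT (ACTTCCGG on the other strand), which contains the core, is in 3.89% of promoters and in none of the 4. A match is a description, not a site or a cause, and a missing match says only that these letters are not in this window.

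Chemokine signalling as a whole was read from 7 lists of 102 genes, the 4 members included, of which 99 symbols were found once. In cvECs, 51 were tested, 3 rose and 1 fell, the last being Ackr2 itself, with a median log2 fold change of -0.12 beside 0.01 over all genes, of which 65 rose and 40 fell (0.919%). In mEndo cells, 52 were tested, 1 rose and 4 fell, with a median of -0.18 beside 0.01 over all genes, of which 177 rose and 203 fell (3.05%). In vEndo cells, 43 were tested and 1 fell, with a median of -0.13 beside 0.01 over all genes, of which 13 rose and 13 fell (0.278%). In cardiomyocytes 60 were tested and none passed by edgeR, with 7 at an unadjusted p under 0.05 (1925 of all 16022 genes) and 0 called by DESeq2. By list, medians in cvECs ran from -0.28 for receptor signalling and desensitisation (3 of 17 values above 0) to 0.35 for the adrenomedullin axis (4 of 4). In mEndo cells they ran from -0.38 for Cxcl12 processing and presentation (2 of 8) to 0.15 for the adrenomedullin axis (3 of 4), with receptor signalling at -0.28 (4 of 19) and chemokine ligands at 0.12 (5 of 8). Receptor signalling in cardiomyocytes was at 0.04 (11 of 20).

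The genes that rose in cvECs were Adm, Cxcl10 and Sdc4. Adm, the gene of adrenomedullin, which ACKR3 also takes up, was at 30.9 and 24.0 CPM in control libraries and 60.6 and 49.7 in the eKO. Its log2 fold change was 1.06 (edgeR adjusted p = 0.0206), higher in 2 of 2 eKO libraries. Cxcl10, an interferon-induced chemokine, was at 6.84 and 3.64 CPM against 16.5 and 17.1, with a log2 fold change of 1.68 (edgeR adjusted p = 0.0206). Sdc4, a heparan sulfate proteoglycan of the cell surface, was at 11.4 and 8.80 CPM against 21.2 and 19.7. Its log2 fold change of 1.06 (edgeR adjusted p = 0.0440) did not pass by DESeq2 (adjusted p = 0.171), nor by edgeR with scaling by total counts (adjusted p = 0.0528), with doublets kept (0.0523), with stricter cell limits (0.0515) or with clusters in place of the gate (0.0542). For all 3 genes both eKO libraries lay above both controls.

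In mEndo cells Mmp2, a matrix protease that can cleave CXCL12, was at 98.8 and 89.7 CPM in control libraries and 48.8 and 50.9 in the eKO, and fell by 0.87 on the log2 scale (edgeR adjusted p = 0.00423). Epas1, a hypoxia-inducible factor, was at 126 and 118 CPM against 74.9 and 79.6 (log2 fold change -0.61, edgeR adjusted p = 0.0219). Ext1, which builds heparan sulfate chains, was at 475 and 554 CPM against 330.0 and 321 (log2 fold change -0.62, edgeR adjusted p = 0.0404). All 3 were lower in both eKO libraries than in both controls, as was Arrb1, a beta-arrestin, at 46.6 and 48.0 CPM against 30.1 and 25.8 (log2 fold change -0.72, edgeR adjusted p = 0.0273). Ccl7, a CC chemokine, rose from 4.98 and 7.13 CPM to 11.3 and 18.5 (log2 fold change 1.37, edgeR adjusted p = 0.0350). In vEndo cells Stat3 was at 269.7 and 239.9 CPM in control libraries and 100.3 and 139 in the eKO (log2 fold change -1.08, edgeR adjusted p = 0.0255).

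Single libraries or settings decided some of these calls. The call was lost for Epas1 without control replicate 1 (-0.57, edgeR adjusted p = 0.0763) or eKO replicate 1 (-0.57, edgeR adjusted p = 0.0624). For Ext1 it was lost without control replicate 2 (-0.46, edgeR adjusted p = 0.244), eKO replicate 1 (-0.63, edgeR adjusted p = 0.0673) or eKO replicate 2 (-0.60, edgeR adjusted p = 0.0768). Ext1 also did not pass with a stricter gate (edgeR adjusted p = 0.0650). Arrb1 did not pass without eKO replicate 1 (-0.82, edgeR adjusted p = 0.0511) or eKO replicate 2 (-0.61, edgeR adjusted p = 0.106), with a stricter gate (edgeR adjusted p = 0.0562) or by DESeq2 (adjusted p = 0.0606). Nor did Ccl7 without eKO replicate 2 (0.96, edgeR adjusted p = 0.187) or Stat3 without eKO replicate 1 (-0.85, edgeR adjusted p = 0.0540), and Stat3 did not pass by DESeq2 (adjusted p = 0.0773). Adm, Cxcl10, Mmp2 and Sdc4 passed without any 1 library. Differences of these effects between classes were not tested.

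The highest levels on the lists lay mostly outside the coronary vessels. Mif was at a mean of 2009 CPM in cardiomyocytes, and Ccl4 and Pf4 at 1498 and 860.1 CPM in immune cells, with the receptors Cx3cr1, Cd74 and Ccr2. Gpr182, an atypical receptor of the endothelium, was highest in mEndo cells, as was Ackr3, at 184 and 211 CPM in control mEndo cells and 177 and 185 in the eKO, with overlapping groups. Ccrl2 was highest in immune cells. Ramp2 and Calcrl, which form the adrenomedullin receptor, were highest in mEndo cells, at means of 1225 and 359 CPM, and Ramp1 in cardiomyocytes. Of the matrix and protease genes, Ext1 was highest in vEndo cells, Hspg2 in cvECs and Dpp4, a protease that inactivates CXCL12, in epicardial cells at 304 CPM. Gnai2 and Gnb1 led the signalling list in cvECs and Elmo1 in vEndo cells, and Klf2, Dach1 and Hif1a led the regulators in vEndo cells, cvECs and cardiomyocytes.

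Genes with similar profiles over the 8 classes were named by the Pearson correlation of mean log2 CPM, as a description over classes of the same 4 libraries. For Cxcl12 they were Rbpms2 (r = 0.982), Ung, Sntb1, Polr2f and Nsmce1, among 9764 genes. For Cxcr4 they were Rpl19 (r = 0.976), Fen1, Tbpl1, Dek and Utp3. For Ackr3 they were Vamp7 (r = 0.973), Nemp1, Dido1 and Cramp1l. For Ackr2 they were Cit (r = 0.952), Nudt14, Nabp2, Gabarapl2 and Grrp1, a profile whose vEndo mean of 2.73 CPM came mostly from the 1 cell with 9 UMIs and which has 3 classes at 0. Cit, the first of these, was at 47.2 CPM in cvECs and 24.5 in mEndo cells.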

How the data were processed

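Whole UMI counts per gene and cell barcode were deposited by the authors, whose processing notes name Cell Ranger 7.1.0, Seurat 4.3.0 and mm10. Limits of 200 to 7000 genes per cell and of 20% for mitochondrial, 35% for ribosomal and 2% for hemoglobin UMIs left 11322, 7212, 9196 and 13833 cells, from which predicted doublets were removed in Python 3.11.15 with scanpy 1.11.5 and scikit-learn 1.9.0. Each cell took the class of its highest scaled marker score, if at least 0.4 and 0.15 above the next. Of the kept cells, 2307 of 37913 (6.08%) lay within 0.05 of that lead, as did 938 of 6827 endothelial cells (13.7%), and 3606 (9.51%) had no class. Eln-rich cells had at least 10 Eln UMIs per 10000.

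UMIs were summed per library and class. Levels are UMIs per 1000000 (CPM). Groups of 2 libraries were compared with edgeR 4.0.16 in R 4.3.3 (TMM, filterByExpr, quasi-likelihood) and Benjamini-Hochberg adjustment over all genes tested in a class, called at an adjusted p of at most 0.05. Standard errors are derived from the F statistic. Differences of effects between classes were tested with library, class and class by condition terms. DESeq2 1.42.0, other scalings, filters and gates, and leaving out each library were the alternatives. Shares of cells used cells thinned to 2000 UMIs (cells with fewer were left out), exact 95% binomial intervals, which cover counting error only, and an exact two-sided permutation test. Named genes were the 4 members, Ets1, each gene of the 7 lists that passed in an endothelial class, the genes of highest mean level per list, and, per member, genes among the most correlated. Members and lists were chosen with earlier results of these data known. Ccl19, Ccl21a and Ccl27a were left out because their symbols are not unique, and Ackr2 UMIs per cell were looked at after the values were seen. Positions are from GENCODE vM21. Library depths are given above.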

Additional observations from a re-analysis of the deposited data

Results flagged for a closer look

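For Ackr3 the effect of the eKO differed between both endocardial classes, by a test of the difference itself. Levels were 224 and 197 CPM in control mEndo cells and 138 and 162 in the eKO, while vEndo cells held 106 and 119 CPM against 150.5 and 167. The difference of log2 fold changes, vEndo minus mEndo, was 0.99 ± 0.18 (SE, edgeR quasi-likelihood, Benjamini-Hochberg adjusted p = 0.0103). Neither effect passed the test in its own class, and without eKO replicate 1 the difference was 0.95 (edgeR adjusted p = 0.187). The cause was not tested.

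For Ackr2 the effect differed between vEndo cells and cvECs by 6.95 ± 1.49 on the log2 scale (SE, edgeR adjusted p = 0.0183). The vEndo cells held 1 and 0 UMIs in the controls and 9 and 0 in the eKO, and the 9 came from 1 cell, so without eKO replicate 1 the difference was -0.24.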

How the results depend on the processing

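Of 39 results, 14 were the main ones. The other 25 had 260 values under alternatives, of which 232 kept their direction and side of the threshold or, for values without a threshold, moved by less than the spread between libraries. The call was lost in 19, the sign of a tested value turned in 5, and 4 moved by more than that spread. In mesenchyme, Cxcl12 passed when scaled by total counts (-2.31), with every gene kept (-2.23, edgeR adjusted p = 0.00489), a replicate block (-2.16) and DESeq2 (-2.22), and was -2.53 to -1.81 without each library. It did not pass with a stricter gate (-1.79, edgeR adjusted p = 0.0900) or with doublets kept (-2.19, edgeR adjusted p = 0.0940). Nor did it with stricter cell limits (-2.23, edgeR adjusted p = 0.0581) or clusters in place of the gate (-1.61). Without Eln-rich cells, an alternative chosen after seeing the data, it was -0.68. In smooth muscle it passed with no filter (-3.84) and a replicate block (-3.42), and was -4.83 to -1.73 without each library. Leaving out each library gave 0.066 to 0.35 in cardiomyocytes and -0.82 to -0.21 in cvECs for Cxcl12, -4.48 to -2.97 in cvECs for Ackr2, and 0.82 to 1.12 for Ackr3 in vEndo minus mEndo. Ackr3 in mEndo cells passed with no filter (-0.45, edgeR adjusted p = 0.0297), its share difference with all UMIs was -16.9 percentage points, where depth differs, and clusters in place of the gate gave mEndo cells 58.4% of its UMIs. Signs turned on leaving out a library for Cxcl12 (-0.73 to 0.27) and Ackr3 (-0.44 to 0.054) in epicardial cells, Cxcr4 in immune cells (-0.74 to 0.95) and Ackr2 in vEndo minus cvEC (-0.24 to 9.43). The Cxcr4 share difference in cvECs, 0.185 percentage points, turned to -1.54 with 1000 UMIs per cell and -2.78 with all UMIs, and was -0.588 to 0.957 without each library. Leaving out a library also turned the share differences of Ackr3 in vEndo cells (1.87, range -2.19 to 5.92) and of Cxcl12 in cardiomyocytes (1.27, range -0.469 to 3.0003, and -1.60 with all UMIs). Without the 1 vEndo cell, also chosen after seeing the data, Ackr2 no longer passed the filter on low counts and gave no value for that difference. Replicate numbers did not pair (correlations of -0.0984, -0.0889, 0.0225 and -0.0477 in cardiomyocytes, cvECs, mEndo and vEndo cells). Over all genes, calls ranged from 84 to 827 in cvECs, 264 to 1107 in mEndo cells, 15 to 158 in vEndo cells, 0 to 2487 in cardiomyocytes and 3 to 813 in mesenchyme. Total count scaling moved the median over all genes in cardiomyocytes from 0.01 to -0.10. Fits without 1 library leave 1 in a group, assumed to vary like the others. Adjusted p over the alternatives ranged from 0.0492 to 0.975 (cardiomyocytes), 0.0122 to 0.899 (cvECs) and 5.33e-16 to 0.408 (mesenchyme) for Cxcl12, 0.0297 to 0.420 for Ackr3 in mEndo cells, 7.40e-09 to 0.159 for Ackr2 in cvECs, and 0.00205 to 0.187 for Ackr3 in vEndo minus mEndo (edgeR or DESeq2). The causes of these changes were not tested. With 2 libraries a group and few UMIs of Ackr2 and Cxcr4 outside the coronary cells, the size of difference that could be detected there was not measured.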
